A study of Rattus norvegicus with 29 samples.

Results

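The late change in TCDD-exposed kidney tubule cells was described by comparing 3 libraries taken at 24 h with 3 taken at 6 h of exposure, without use of the untreated cultures. These 6 libraries were picked by their titles from the 29 of the series. All were total RNA of primary rat cells, labelled renal proximal tubule epithelial cells, treated with 2,3,7,8-tetrachlorodibenzodioxin (TCDD), and the groups differed only in the time point. The series served to predict changes of renal metabolism after exposure to compounds, and its other groups were untreated cultures and cultures with acetaminophen, gentamicin or trichloroethylene at the same times. The sources used here do not give the dose, the vehicle, the strain or the age of the animals. The labels do not say whether replicates are separate animals or cultures. All p-values therefore refer to the spread between libraries of a group, which may be technical. In the main fit this spread is that of the 6 TCDD libraries. In the comparisons with other groups it is taken over all 29 libraries.

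TCDD is a persistent dioxin and a strong ligand of the aryl hydrocarbon receptor, a transcription factor that rests in the cytoplasm bound to chaperones. With ligand, the receptor enters the nucleus, pairs with its partner ARNT and binds xenobiotic response elements near genes such as Cyp1a1, which encodes a drug-oxidising cytochrome P450. Proximal tubule cells reabsorb most of the filtered solutes and carry much of the kidney's transport of drugs and toxicants. The tables give Ensembl transcript identifiers, and 0 of 28420 could be paired with a gene name here. The known targets of the receptor and the markers of the tubule cell were therefore not examined, no promoter or transcript sequence is shown, and the response is described by groups of transcripts and by 4 identifiers. In such bulk libraries, fewer cells of a type and less RNA per cell cannot be told apart.

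Most of the measured transcripts differed between 24 h and 6 h of TCDD. Of 14117 transcripts tested, 8633 passed (61.2%): 4362 rose (30.9% of those tested) and 4271 fell (30.3%). The rises had a median log2 change of 0.98 and the falls one of -1.01. Rises of more than 2-fold numbered 2134 and falls of that size 2159. Beyond 4-fold there were 595 rises and 577 falls, and beyond 16-fold 103 rises and 42 falls. Few transcripts could be shown to be steady: for 1486 (10.5%) the 95% interval of the change lay within 1.5-fold either way. These intervals were set with the 4 residual degrees of freedom alone, while the test also draws on the spread of other transcripts. With a median SE of 0.172 they are therefore wide, and wider than the test itself would give. A transcript outside this set therefore need not have changed.

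The 24 h libraries lay all above the 6 h libraries for 4863 transcripts and all below for 4727, together 67.9% of those tested, while 145 called transcripts had overlapping groups. The test was edgeR's quasi-likelihood test on these 6 libraries, with Benjamini-Hochberg adjusted p under 0.05. When each library was left out in turn, 6839 transcripts (48.4% of those tested) passed every time in the same direction, 3422 upward and 3417 downward. Rises made up 50.5% of calls in the count fit and 28.4% on log2(TPM + 1), a scale on which the median change over all transcripts was -0.32 in place of 0.02. With fragment length added as a covariate, 4403 transcripts passed, 2071 upward and 2332 downward.

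**Figure D1:**
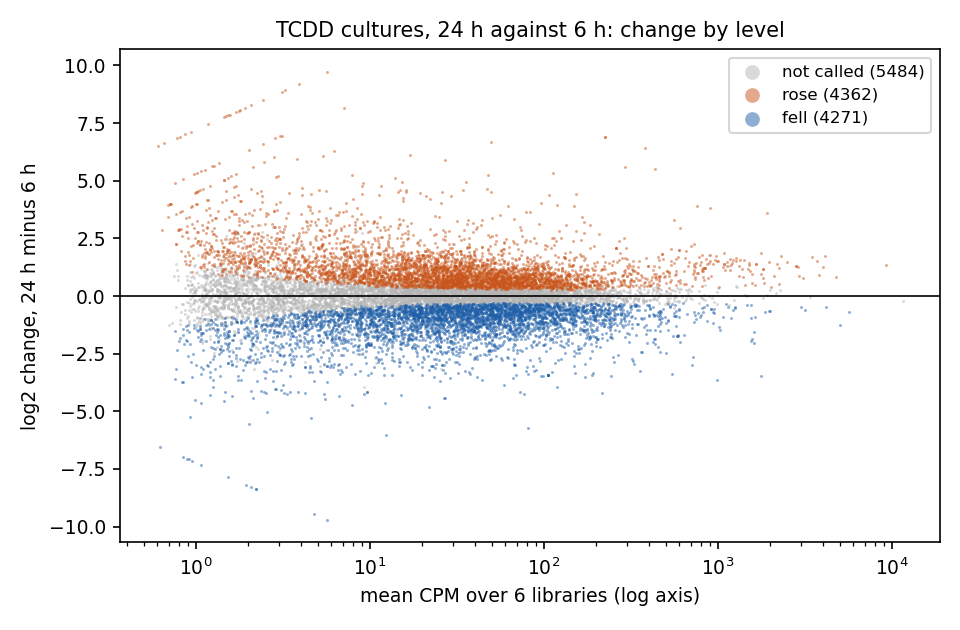
Log2 change from 6 h to 24 h of TCDD (vertical axis) against the mean level in CPM, a count scaled to the library total, over the 6 libraries (horizontal log axis), 1 point per tested transcript. The 4362 transcripts that rose and the 4271 that fell are spread over the whole range of levels; the thin slanted rows of points far from 0 are transcripts without a count in 1 group, whose fitted size depends on the fit's prior count.

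Changes of either direction were found at every level of expression. Among 7827 transcripts with a mean of 10 to 100 CPM, 2555 rose and 2568 fell. Among the 2120 above that range, 673 rose and 766 fell. In the 4026 transcripts of 1 to 10 CPM, where counting error is larger, 1084 rose and 906 fell. The share called was 49.4% in this low class and 67.9% in the highest. The 144 transcripts under 1 CPM, with 50 that rose and 31 that fell, had a called share of 56.2%.

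These 4 transcripts stand for the largest changes among the 4145 that were called with every library left out in turn and had at least 100 estimated counts in all 6 libraries. Levels are given in TPM, a level per transcript length, for replicates 1, 2 and 3, and log2 changes are from the fit on counts.

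The largest rise was that of ENSRNOT00000071549, a transcript of 1047 bases. Its levels were 22.1, 43.2 and 26.8 TPM at 6 h and 1147, 812 and 1216 TPM at 24 h. Every 24 h library was far above every 6 h library, and replicate 2 was the highest at 6 h. The log2 change was 5.50 ± 0.26 (SE, n = 3 against 3; edgeR adjusted p = 3.55e-07), a 45.1-fold rise. In the 26 libraries outside the TCDD 24 h group its level was 11.7 to 83.5 TPM, with the highest value in an acetaminophen library of 24 h.

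ENSRNOT00000074583, 2445 bases long, had the next largest rise. It stood at 7.48, 8.88 and 9.20 TPM at 6 h and at 113, 65.2 and 132 TPM at 24 h. The 6 h libraries were close together and replicate 2 was the lowest of the 24 h libraries, with no overlap between the times. The log2 change was 3.94 ± 0.18 (SE, n = 3 against 3; edgeR adjusted p = 3.39e-07). Gentamicin cultures at 24 h held 90.2 to 107 TPM, within the range of the TCDD libraries, and gentamicin cultures at 6 h already held 25.7 to 51.1 TPM. Trichloroethylene cultures at 24 h stayed at 8.69 to 11.2 TPM.

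The largest fall was in ENSRNOT00000039341, a long transcript of 6003 bases. It fell from 90.2, 104 and 82.0 TPM at 6 h to 3.77, 2.05 and 6.39 TPM at 24 h. All 24 h libraries were below all 6 h libraries, and the lowest was again replicate 2. The log2 change was -4.20 ± 0.28 (SE, n = 3 against 3; edgeR adjusted p = 5.01e-06). At 24 h its range was 45.3 to 66.7 TPM with trichloroethylene and 15.7 to 43.4 TPM with gentamicin.

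ENSRNOT00000043693 fell from a very high level although it is short, at 684 bases. Its levels were 5050, 4935 and 6788 TPM at 6 h and 265, 356 and 331 TPM at 24 h. The groups did not overlap, and the log2 change was -3.65 ± 0.22 (SE, n = 3 against 3; edgeR adjusted p = 1.18e-06). At 24 h it was at 733 to 803 TPM with gentamicin and at 3373 to 3944 TPM with trichloroethylene, above the TCDD libraries of that time and below those of 6 h. Untreated cultures of 24 h held 6383 to 7883 TPM.

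**Figure D2:**
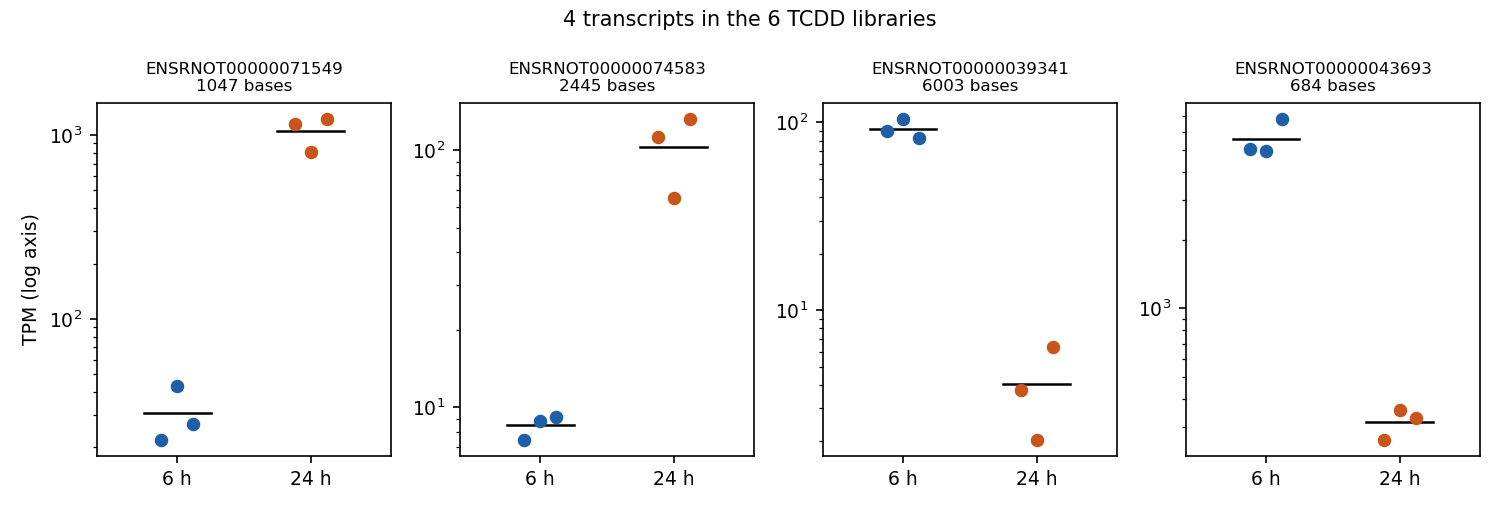
TPM (log axis, own range in each panel) of 4 transcripts in the 3 TCDD libraries of 6 h and the 3 of 24 h; points are libraries in replicate order and bars are group means. The 2 transcripts on the left were higher and the 2 on the right lower in all 24 h libraries than in any 6 h library.

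Few transcripts went from no count to clear presence or the reverse. Without a count in any 6 h library, 21 transcripts reached at least 10 counts in every 24 h library, and 13 showed the opposite. All passed, as the filter on low counts keeps such transcripts only through the group where they are high. Their levels were low, with a median of 2.15 TPM at 24 h for those that appeared (highest 21.7 TPM) and of 2.22 TPM at 6 h for those that disappeared (highest 20.5 TPM). Of the 21, 5 also had at least 10 counts in every gentamicin library of 24 h, 2 in every trichloroethylene library and 1 in every untreated library of that time. A count of 0 in a library allows up to 3 counts, so the sizes of these changes are lower bounds.

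The transcripts that rose came to fill most of the pool. They made up 39.1%, 39.6% and 35.9% of all TPM in the 6 h libraries and 64.2%, 65.8% and 61.8% in the 24 h libraries. Those that fell went from 29.9%, 29.7% and 33.4% to 11.6%, 10.4% and 13.2%. These transcripts were chosen by this comparison, so the shares describe its size and test nothing. The 100 transcripts with the most counts in each library held 19.0% ± 0.22 of the counts at 6 h and 24.1% ± 1.52 at 24 h (SD, n = 3 each). All 24 h libraries were above all 6 h libraries (two-sided exact permutation test p = 0.1, the smallest that 3 against 3 allows).

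The list of the most abundant transcripts was partly replaced. Of the 100 highest by mean TPM at 6 h, 69 were still among the 100 highest at 24 h. Of those 100 at 6 h, 61 rose and 23 fell, beside 30.9% and 30.3% of all tested transcripts. These directions are from the fit on counts, while the list is ranked on TPM, a scale on which only 28.4% of calls were rises. The shares over all tested transcripts are not matched for level or length. The 31 that entered had all risen, which entry nearly requires, and 26 of them were under 1000 bases long. Of the 31 that left, 21 had fallen, and 18 were under 1000 bases. Among all 14117 tested transcripts, 508 were under 500 bases and 1516 were of 500 to under 1000 bases. The share of short transcripts among all 100 at either time was not counted, so these numbers are no result about the entrants. The number of transcripts detected depended on the minimum: at least 1 count was found for 17008, 17104 and 16954 transcripts at 6 h and for 17837, 17468 and 17856 at 24 h, without overlap (exact permutation p = 0.1). With at least 10 counts the numbers were 13616, 13833 and 13559 at 6 h and 14023, 13759 and 14068 at 24 h, and the groups overlapped (exact permutation p = 0.2). The 24 h libraries also held more counts on average, 9676480 beside 8931570, with overlap between the groups.

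The direction of change varied with transcript length. Transcripts of 4000 bases or more fell far more often than they rose: of 2037 tested, 1059 fell (52%) and 267 rose (13.1%), beside 30.3% and 30.9% over all transcripts. Their median log2 change was -0.51. From 500 to under 1000 bases the balance was the reverse, with 557 of 1516 that rose (36.7%), 309 that fell (20.4%) and a median of 0.29. The class from 1000 to under 2000 bases resembled it (1802 rose and 1136 fell of 4783, median 0.21), and from 2000 to under 4000 bases the directions were even (1603 rose and 1652 fell of 5273, median -0.01).

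The shortest class did not continue the trend. Under 500 bases, 133 transcripts rose and 115 fell of 508, with a median log2 change of 0.04. In 20 bins of equal size, the median stayed between 0.11 and 0.32 up to a length of about 2144 bases and then declined, unevenly, to -0.72 in the longest bin, whose median length was 6794 bases and in which 60.8% of transcripts fell. Across transcripts, which are not independent replicates, log2 change and length had a Spearman correlation of -0.204. On log2(TPM + 1), where all transcripts had a median of -0.32, the median was -0.20 under 1000 bases and -0.72 at 4000 bases or more. The sign for the short transcripts thus depends on the scale, while the long ones had the lower median on both scales.

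**Figure D3:**
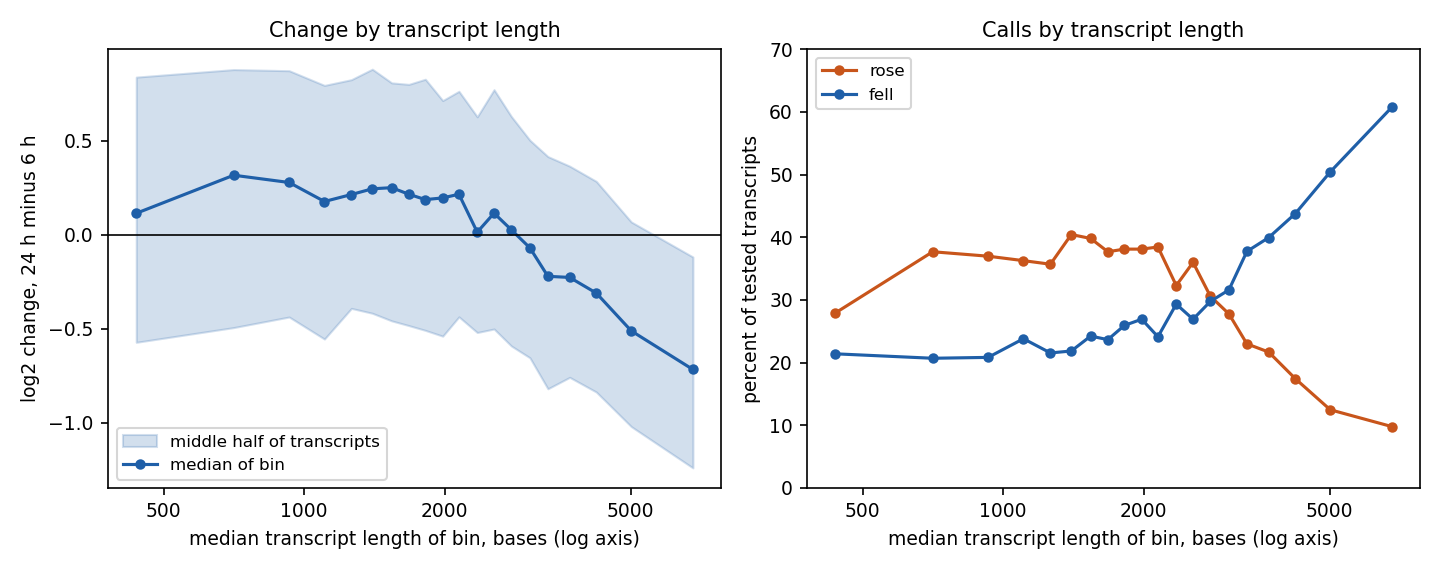
Left: log2 change from 6 h to 24 h of TCDD by transcript length (log axis), as the median of 20 bins of 705 or 706 transcripts, with a band from the lower to the upper quartile. Right: percent of each bin that rose or fell; falls reached 60.8% and rises 9.77% in the longest bin.

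The width of the length pattern differed between levels. At 100 CPM or more, the median log2 change was 1.10 for the 55 transcripts under 500 bases, 0.75 for the 192 of 500 to under 1000 bases and -0.75 for the 436 of 4000 bases or more. At 10 to 100 CPM the same classes gave 0.02, 0.33 and -0.51. At 1 to 10 CPM they gave -0.15, 0.11 and -0.16, the narrowest spread of the levels. Under 1 CPM the classes held only 18, 25 and 7 transcripts, with medians of 0.79, 0.46 and -0.87.

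Each 24 h library showed the length pattern, to a different degree. Against the mean of the 6 h libraries, transcripts of 4000 bases or more had a median of -0.47 in replicate 1, -0.73 in replicate 2 and -0.35 in replicate 3. Those of 500 to under 1000 bases had 0.27, 0.52 and 0.14. Replicate 2 was thus the most and replicate 3 the least shifted. The long minus short difference, taken as the median at 4000 bases or more minus the median under 1000 bases, was -0.68, -1.19 and -0.38 in the 24 h libraries and -0.14, -0.09 and 0.22 in the 6 h libraries. The groups did not overlap (exact permutation p = 0.1). In the fit the difference was -0.76 with all libraries and -0.53 without replicate 2 of 24 h.

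The deposited counts show the shift without any model. Transcripts of 4000 bases or more held 21.5%, 22.0% and 23.1% of the counts in the 6 h libraries and 13.5%, 10.5% and 15.1% in the 24 h libraries. Transcripts under 1000 bases held 12.1%, 11.98% and 10.1% at 6 h and 17.7%, 21.6% and 15.3% at 24 h. In the 26 libraries outside the TCDD 24 h group, the long transcripts held between 17.5% and 24.5% of the counts and the short ones between 9.63% and 14.9%. No library of another group reached the range of the TCDD 24 h libraries in either share. The long minus short difference, taken against the mean of all 29 libraries, did overlap. It was -0.296 and -0.324 in replicates 1 and 2 of acetaminophen at 6 h, and -0.284 in replicate 3 of TCDD at 24 h.

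**Figure D4:**
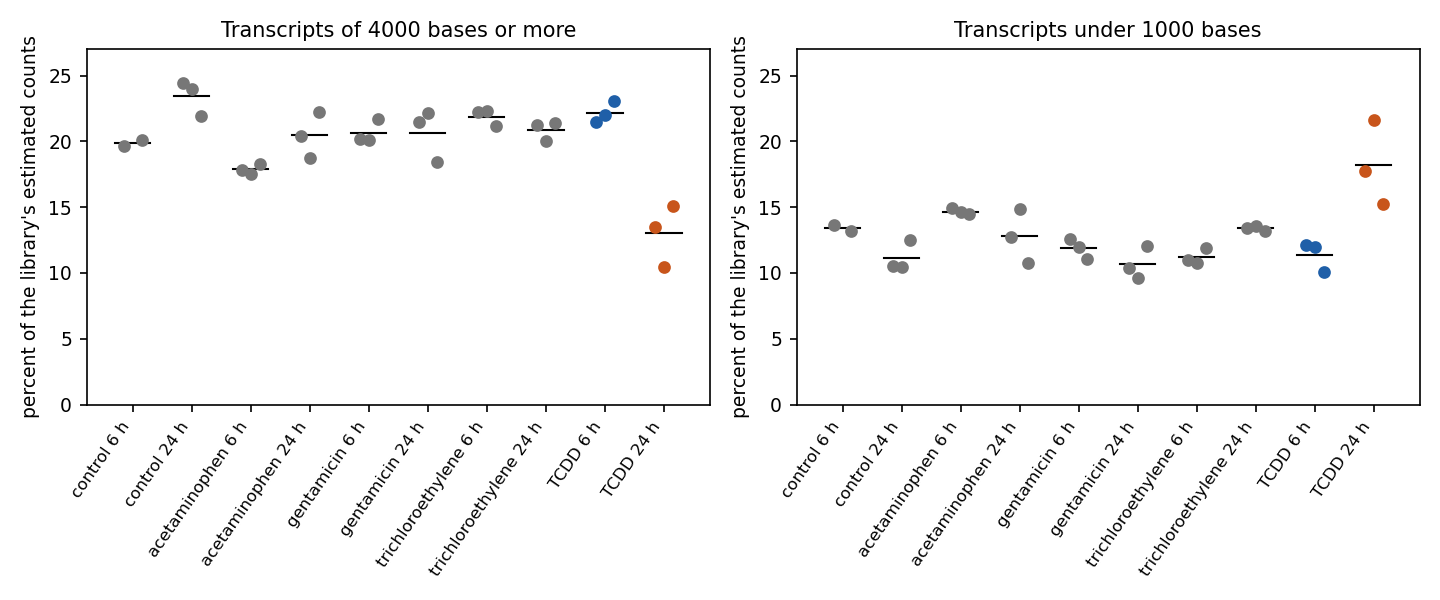
Percent of each library's estimated counts in transcripts of 4000 bases or more (left) and under 1000 bases (right), with 1 point per library, bars at the group means and the vertical axes starting at 0. The TCDD 24 h libraries, in orange, are the lowest on the left (10.5% to 15.1%) and the highest on the right (15.3% to 21.6%).

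Fragment length moved with time as well. Effective length is shorter than transcript length by about the mean fragment length of a library, and this gap in bases was 249.9, 254.2 and 277.8 at 6 h and 230.3, 238.1 and 233.8 at 24 h. All 24 h libraries were below all 6 h libraries (exact permutation p = 0.1). One acetaminophen library of 24 h, replicate 2, had a fragment length of 232.7 bases, inside the TCDD 24 h range. It held 18.7% of its counts in transcripts of 4000 bases or more, the lowest share of its group. Replicates 1 and 3 of that group had 253.9 and 274.7 bases and shares of 20.4% and 22.2%. The TCDD libraries of 6 h also had higher shares with longer fragments, at 21.5%, 22.0% and 23.1% for replicates 1, 2 and 3. Those of 24 h did not keep this order. Replicate 2 had the longest fragments of that group and the lowest share, 10.5%, beside 13.5% and 15.1% in replicates 1 and 3. The trichloroethylene libraries of 24 h did not keep it either, with 248.3 bases and 21.3% in replicate 1 and 258.0 bases and 20.1% in replicate 2. With the fragment length covariate the medians were 0.10 under 1000 bases and -0.45 at 4000 bases or more. Because fragment length separates the times in these 6 libraries, this fit cannot tell its part in the length pattern from that of time. That part was not tested, and no RNA integrity values are in the sources used here.

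Most calls were kept after correction for length. When a smooth trend on transcript length was removed from each library, 8821 transcripts passed, and 7694 of the 8633 original calls (89.1%) passed in the same direction, while 19 passed in the opposite one. Among transcripts of 4000 bases or more, this correction gave 645 rises and 649 falls, which is the balance it is built to give. The 4 transcripts described above passed under it too. By their median lengths, changes of more than 4-fold were less tied to length, at 1801 bases for rises and 1928 bases for falls. All rises and all falls had medians of 1806 and 2607 bases. Part of the pattern remained beyond 4-fold: at 4000 bases or more 89 fell and 43 rose, and under 1000 bases 93 fell and 106 rose.

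The late TCDD change was set beside the change over the same interval with other compounds, in 1 fit of all 29 libraries. No libraries are shared between these time changes. In this fit 10190 of 15990 transcripts passed for TCDD (63.7%; 32.5% rose and 31.3% fell), 8283 for gentamicin (51.8%), 7602 for trichloroethylene (47.5%) and 6842 for acetaminophen (42.8%). Calls of more than 2-fold numbered 4749 with TCDD, 3016 with gentamicin, 2202 with trichloroethylene and 1831 with acetaminophen. The median size of the log2 change over all tested transcripts was 0.70, 0.51, 0.45 and 0.41 in that order.

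Trichloroethylene and gentamicin were compared with TCDD transcript by transcript. With TCDD and trichloroethylene both, 2387 transcripts rose, 46% of the TCDD rises and 61% of the trichloroethylene rises. With both, 2183 fell, 43.7% and 59.2% of the falls. Over all tested transcripts, 24.5% rose and 23.1% fell with trichloroethylene, and 32.5% rose and 31.3% fell with TCDD. Opposite changes numbered 1075, or 10.5% of the TCDD calls. With gentamicin, 1780 rose with both (34.3% and 44% of the rises), 1984 fell with both (39.7% and 46.8%), and 2127 ran opposite (20.9% of the TCDD calls). Of all tested transcripts, 25.3% rose and 26.5% fell with gentamicin. Across transcripts the log2 changes of TCDD correlated with those of trichloroethylene at r = 0.385 and of gentamicin at r = 0.234, given as a description.

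Part of the strongest TCDD changes also occurred with trichloroethylene and gentamicin. Of the 595 transcripts that rose more than 4-fold with TCDD, 342 (57.5%) rose with trichloroethylene and 255 (42.9%) with gentamicin, where 24.5% and 25.3% of all tested transcripts rose. Of the 577 that fell more than 4-fold, 318 (55.1%) fell with trichloroethylene and 301 (52.2%) with gentamicin, beside 23.1% and 26.5% of all. Their median log2 changes were 1.29 and 0.73 for the rising set and -0.67 and -0.61 for the falling set; since the sets were picked for their size with TCDD, these values are not compared with it. With acetaminophen, 30.1% of the rising set rose and 25.6% of the falling set fell, beside 21.3% and 21.5% of all. In untreated cultures 9.41% of the rising set rose and 9.53% of the falling set fell, beside 12.3% and 12.6% of all, and 14.2% of the falling set rose.

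The difference between the time changes was tested by an interaction contrast. TCDD and trichloroethylene differed in 7347 transcripts (45.9%), with 3481 changes higher (21.8%) and 3866 lower (24.2%) with TCDD, and 3253 differed by more than 2-fold. TCDD and gentamicin differed in 8879 (55.5%), with 4365 higher (27.3%) and 4514 lower (28.2%) with TCDD, and 5067 differed by more than 2-fold. Higher changes were 47.4% and 49.2% of these calls, but 19.9% and 35% on log2(TPM + 1), and 33.2% and 56.4% with total counts as the scale. The length pattern appeared in these differences: at 4000 bases or more their median was -0.45 against trichloroethylene and -0.64 against gentamicin, and from 500 to under 1000 bases 0.15 and 0.31.

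**Figure D5:**
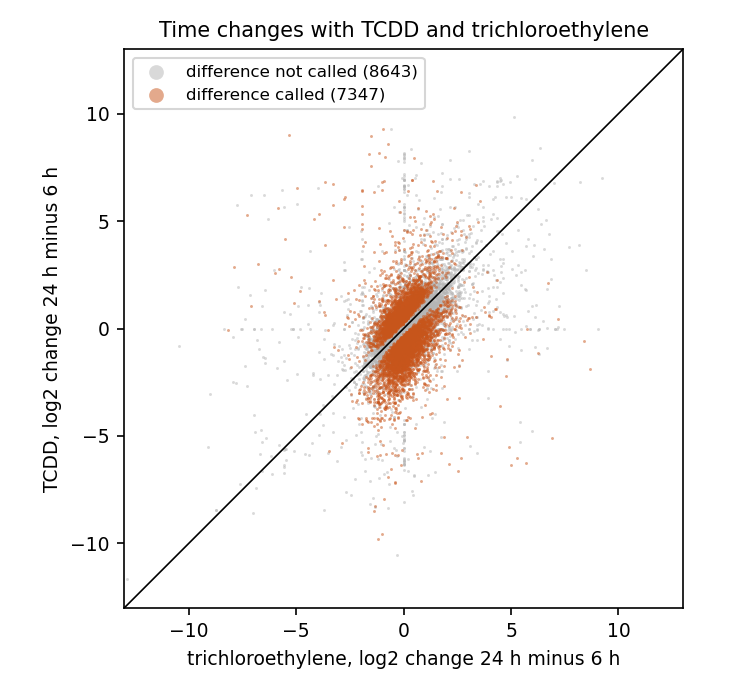
Log2 change from 6 h to 24 h with TCDD (vertical) against that with trichloroethylene (horizontal), 1 point per transcript, from the fit of all 29 libraries, with the line of equal change. The 7347 transcripts whose changes differed are in orange; points far from the line include transcripts without a count in a group, whose fitted size depends on the prior count.

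Time in culture is part of any 24 h against 6 h comparison. In the untreated cultures, with 2 libraries at 6 h and 3 at 24 h, 3985 of 15990 transcripts passed over the same interval (24.9%), 600 of them by more than 2-fold. Their lengths ran the other way, with a median log2 change of 0.26 at 4000 bases or more and -0.20 from 500 to under 1000 bases. The TCDD change differed from this untreated change in 8959 transcripts (56%), of which 4346 were higher (27.2%) and 4613 lower (28.8%) with TCDD. Higher changes were 48.5% of these calls, and 25.4% on log2(TPM + 1). Transcripts that changed with TCDD and differed in the same direction from trichloroethylene, gentamicin and untreated cultures numbered 1739 rises and 2172 falls of 15990 tested. The same 6 TCDD libraries enter each of these tests, so their agreement is partly built in and the numbers are a description. The difference from acetaminophen was not tested. The median lengths of these rises and falls were 1680 and 2883 bases, beside 2019 bases over all tested transcripts.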

How the data were processed

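RNA of 29 libraries was sequenced, and the 6 TCDD libraries held between 8298542 and 10017599 counts. The authors quantified transcripts with kallisto 0.43, per the submitters' processing notes. Each deposited table gives estimated counts per transcript, per the file headers; 20.01% of the TCDD values, taken exactly as deposited with no tolerance, were not whole. Its TPM values are the authors' scaling by effective length and library total. Transcript set, genome build and strand setting: not given in the sources used here. Any reads shared by transcripts of a gene were divided by the authors' tool.

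Estimated counts were rounded. Of 28420 transcripts, 7328 had no count in the TCDD libraries and 14117 passed filterByExpr (minimum count 10), with 99.84% of the counts. The main fit used edgeR 4.0.16 in R 4.3.3 with TMM factors, robust dispersion, the TCDD libraries alone and 4 residual degrees of freedom; the fit of all 10 groups had 19. SE is the log2 change divided by the square root of F. The median SE was 0.172. Groups without counts were set at 3 counts per library for size classes. Replicates were not duplicates, with a chi-square per degree of freedom of 3.51 to 28.3. The steps were tested on simulated data with few changed transcripts, balanced up and down, and no length pattern. That setting differs from these data, so it does not cover a change of most transcripts.

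Alternatives were DESeq2 1.42.0, limma 3.58.1 on log2(TPM + 1) or log2(TPM + 0.1), median-of-ratios factors, total counts, no filter, 10 CPM in 3 libraries, dispersion without robust estimation, a replicate block, effective length offsets, a fragment length covariate, a smooth length trend (lowess span 0.3), other groups in the fit, and each library left out. Named transcripts are the largest 2 rises and 2 falls among calls kept with every library left out and at least 100 counts in each. The comparison, length classes and lists were chosen with earlier results of these data known. Gene lists planned by symbol were not used.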

Additional observations from a re-analysis of the deposited data

Results flagged for a closer look

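The time change of the 4 named transcripts differed between TCDD and both trichloroethylene and gentamicin by an interaction test in the fit of all 29 libraries (edgeR, Benjamini-Hochberg adjusted). The 4 were chosen for the size of their change in the same TCDD libraries, which favours a difference in the direction of that change, so the p-values are not independent evidence of it. The difference from acetaminophen was not tested. For ENSRNOT00000071549 the log2 change with TCDD exceeded that with trichloroethylene by 4.44 (adjusted p = 3.83e-09) and that with gentamicin by 5.61 (adjusted p = 3.38e-11). This transcript rose less strongly with trichloroethylene (log2 change 1.04, edgeR adjusted p = 0.0035) and with acetaminophen (1.25, edgeR adjusted p = 0.000441). For ENSRNOT00000074583, which also rose with gentamicin (log2 change 1.48 ± 0.17 (SE), adjusted p = 1.45e-07), the differences were 3.52 (adjusted p = 1.03e-09) and 2.46 (adjusted p = 2.32e-08). With acetaminophen too ENSRNOT00000074583 rose (log2 change 1.24, edgeR adjusted p = 7.85e-05). The differences of ENSRNOT00000039341 were -3.77 against trichloroethylene (adjusted p = 3.26e-08) and -3.54 against gentamicin (adjusted p = 3.8e-08). A smaller fall of ENSRNOT00000039341 was found with gentamicin (log2 change -0.66, edgeR adjusted p = 0.0289). The differences of ENSRNOT00000043693 were -2.84 (adjusted p = 4.85e-12) and -1.74 (adjusted p = 5.41e-09). It fell with both of these compounds as well, with log2 changes of -0.82 for trichloroethylene and -1.92 for gentamicin. In each case the 3 TCDD libraries of 24 h lay on 1 side of the 3 TCDD libraries of 6 h. The choice of these transcripts nearly requires this, and 67.9% of all tested transcripts did not overlap either.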

How the results depend on the processing

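The count of 8633 calls was 4403 with the fragment length covariate, with 2071 rises and 2332 falls. The cause was not tested. Fragment length separates the times in these libraries, and the covariate also leaves fewer residual degrees of freedom. Rises numbered 2316 on log2(TPM + 1) and 2266 on log2(TPM + 0.1), scales with an overall median change of -0.32 and -0.37. The long minus short difference was -0.035 with the smooth length trend removed, which takes it out by construction. Leaving out each library in turn gave 7541 to 8822 calls, 3813 to 4365 rises, 3728 to 4457 falls and a long minus short difference of -0.90 to -0.53. For the interaction counts the ranges were 6829 to 7463 against trichloroethylene, 8398 to 8814 against gentamicin and 7902 to 8969 against untreated cultures. No other alternative moved these counts by more than 1.5 times. The 4 named transcripts kept their direction and passed under the 13 alternatives that leave out no library, with a largest adjusted p of 0.00154; passing with each library left out was a condition for naming them. The replicate block gave 8471 calls and changed no count beyond that margin. Whether the replicate numbers pair the libraries could not be settled. Deviations of same-numbered libraries correlated at 0.03, -0.07 and 0.16, and 1 of the 3 libraries of 24 h correlated best with its own number. These values show no clear pairing, but 3 libraries per time are too few to exclude it. With 3 libraries a group, no exact permutation test of a library-level value could fall below p = 0.1.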

Other observations

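The 24 h libraries spread more than the 6 h libraries. Over 9767 transcripts with a mean of at least 100 counts, the median SD of log2 CPM was 0.175 among the 24 h libraries and 0.140 among the 6 h libraries, and it was larger at 24 h for 59.4% of them. The first principal component of the 6 libraries held 76.3% of the variance and separated the times, from -73.8 to -65.2 at 6 h and from 63.1 to 72.8 at 24 h. The second held 8.57% and set replicate 2 of 24 h, at 44.6, against replicates 1 and 3, at -17.8 and -29.2. The count-weighted mean transcript length was 2904, 2940 and 3023 bases at 6 h and 2394, 2169 and 2519 bases at 24 h, lowest again in replicate 2. Whether the wider spread at 24 h and the length pattern are linked was not tested.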
